A study of Mus musculus with 4 samples.

Results

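The 10 genes followed here encode the pre-T-cell receptor (pre-TCR) chain Ptcra, the CD3 chains Cd3d, Cd3e, Cd3g and Cd247, the kinases Lck and Zap70, and the adaptors Lat, Lcp2 and Themis. They were chosen by name, as components of 1 pathway, and all 10 were found among the 31053 genes of the matrices. Their transcripts were counted by 10x 3′ sequencing in single cells of the thymus of 4 FVB/N mice, from which live singlets had been sorted after lysis of red cells. The wild-type (WT) library came from 1 mouse of 6 weeks, and the preleukemic library from 1 Tal1/Lmo2 transgenic mouse of 6 weeks. The leukemic libraries T-ALL#1 and T-ALL#2 came from 1 Tal1/Lmo2 mouse each, of 3 months, bearing an acute lymphoblastic leukemia of T cells (T-ALL). Per the study's methods, the proximal promoter of Lck drives both transgenes, so Lck is at once a gene of interest and the source of the transgenes' promoter. The leukemic mice were older than the others, and age and leukemia cannot be told apart.

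In a thymocyte that has rearranged its T-cell receptor (TCR) beta chain, Ptcra pairs with that chain to form the pre-TCR, which is later replaced by the alpha-beta receptor when the alpha chain is made. Both receptors are carried to the surface with the CD3 gamma, delta and epsilon chains and with the zeta chain (Cd247), whose cytoplasmic motifs are phosphorylated by Lck. Zap70 docks on the phosphorylated motifs and phosphorylates the membrane adaptor Lat, which together with Lcp2 (SLP-76) assembles the signaling complex. Themis is a thymocyte protein of the same proximal pathway that is needed for the progress of double-positive cells through selection. In normal development Ptcra is made mainly at the double-negative 3 (DN3) stage, before Cd4 and Cd8 appear.

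Cells with more than 500 genes and under 10% mitochondrial UMIs (unique molecular identifiers, 1 per counted molecule) were kept, with a minimum of 3416 UMIs in T-ALL#2, whose matrix also held empty droplets. This left 4220 WT, 5576 preleukemic, 5773 T-ALL#1 and 1975 T-ALL#2 cells, 17544 in all. The libraries held 24042062, 40851235, 70745712 and 36236569 UMIs in the same order. Median depth per cell was 3800.5, 4888, 8742 and 17581 UMIs in that order, so shares of cells are given as sequenced and after each cell was thinned to 2000 UMIs. No Tal1 UMI was counted in WT, whereas the preleukemic library held 409.6 CPM (counts per 1000000 UMIs), T-ALL#1 68.3 CPM and T-ALL#2 234 CPM. Lmo2, the other transgene, did not follow Tal1. UMIs of Lmo2 numbered 22 (WT), 183 (preleukemic), 26 (T-ALL#1) and 10 (T-ALL#2). As CPM these were 0.915, 4.48, 0.368 and 0.276, so both leukemias lay below WT, and the cause was not tested. The WT and preleukemic mice are labelled male. Xist stood at 1380.2 and 1869 CPM in them, however, and Y-linked genes were at or near 0, so both went against that label. T-ALL#1 was like them, with Xist at 1932 CPM and Y-linked genes at or near 0. T-ALL#2 had Xist at 0.083 CPM and Y-linked genes at 12.3 to 55.7 CPM, so by these genes the libraries differed in sex. Kept barcodes shared by a pair of libraries numbered 0 to 9. Cells with at least 3 B-cell or 3 myeloid markers numbered 7, 23, 15 and 6 in the order above.

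Cells were classed by detection of Cd4 and of Cd8a or Cd8b1. DN cells had UMIs of none of the 3 genes, double-positive (DP) cells had Cd4 and Cd8a or Cd8b1, and Cd4 only and Cd8 only cells had UMIs of 1 kind. DP cells numbered 2325 (WT), 219 (preleukemic), 2634 (T-ALL#1) and 320 (T-ALL#2), and DN cells 325, 3328, 447 and 300. Cells of a DN3 gate, DN cells with Il2ra and without Cd44, numbered 41, 355, 148 and 228. Since a missing UMI of Cd4 can be a matter of depth, the classes describe detection and not surface protein. The level of Cd4 also differed, at 342 (WT), 9.52 (preleukemic), 69.2 (T-ALL#1) and 13.8 CPM (T-ALL#2). In empty droplets of T-ALL#2, Cd4, Cd8a and Cd8b1 stood at 0.757, 0.761 and 0.793 of their level in cells. A class may thus not hold like cells in every library, which was not tested. After thinning to 2000 UMIs, DP cells were 1102, 82, 1145 and 63.

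Ptcra showed the widest range between libraries of the 10 genes. Summed over kept cells, it stood at 43.5 CPM (95% Poisson interval 40.9 to 46.2, 1045 UMIs) in WT and 8.69 CPM (355 UMIs) in the preleukemic library. It reached 177 CPM (12492 UMIs) in T-ALL#1 and 18.7 CPM (677 UMIs) in T-ALL#2. The preleukemic level was below that of WT (ratio 0.200, interval 0.177 to 0.226), and the T-ALL#1 level was 20.3-fold higher (18.3 to 22.6) than the preleukemic one. T-ALL#2 was 2.15-fold higher than the preleukemic library but 2.33-fold lower than WT, whereas T-ALL#1 was 4.06-fold higher than WT. The leukemias thus lay on opposite sides of WT and differed from each other by 9.45-fold (8.75 to 10.2), more than the WT and preleukemic animals did. All these intervals cover counting error only. With 1 library in the WT group and 1 in the preleukemic group, no spread between animals is known for them and no test was made between libraries.

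**Figure D1:**
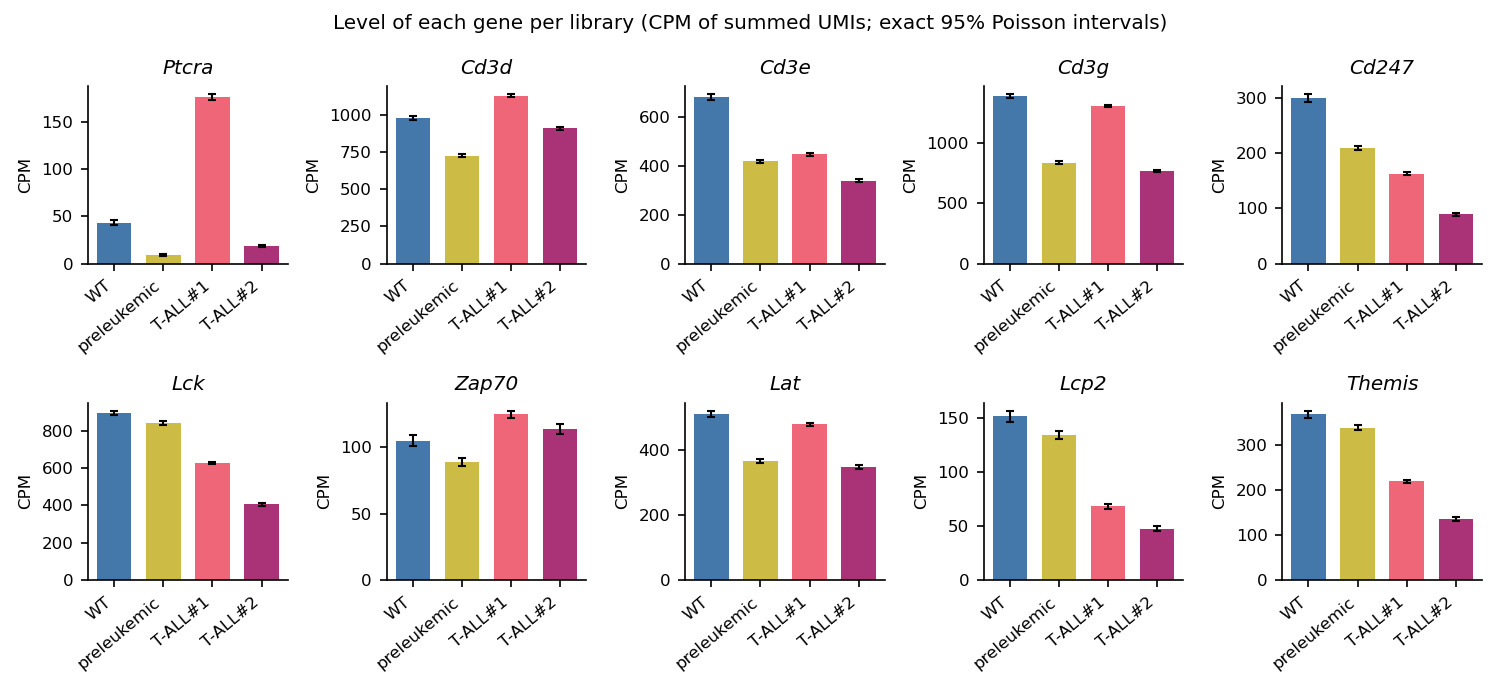
Level of each of the 10 genes in the 4 libraries, in CPM of UMIs summed over kept cells on linear axes from 0, with exact 95% Poisson intervals that cover counting error only and n = 1 library per bar. Ptcra spans 8.69 CPM in the preleukemic library to 177 CPM in T-ALL#1, while Cd247, Lck, Lcp2 and Themis are ordered WT, preleukemic, T-ALL#1, T-ALL#2.

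Ptcra (ENSMUSG00000036858) lies on the minus strand of chromosome 17, from 46755663 to 46763712 on GRCm38. The 250 bases before its RefSeq start (chr17:46763713-46763962, minus strand, GRCm38.p6, a C57BL/6J reference) are shown because the level of Ptcra is what differs most, and because Tal1 and its E-protein partners are known to bind E-boxes. The same window is shown for 3 members with other patterns. They are Cd3e (chr9:45009612-45009861, minus strand), Lck at its start nearer the coding exons (chr4:129558373-129558622, minus strand), and Themis (chr10:28668110-28668359, plus strand). The RefSeq start of Cd3e (45009611) differs from the gene boundary given below (45009627). Bases shortly after that start were not matched to the beginning of an annotated Cd3e transcript, as they were for Ptcra, Lck and Themis. Capitals mark the E-box letters CANNTG, searched on both strands, on which the motif reads alike. 
Ptcra: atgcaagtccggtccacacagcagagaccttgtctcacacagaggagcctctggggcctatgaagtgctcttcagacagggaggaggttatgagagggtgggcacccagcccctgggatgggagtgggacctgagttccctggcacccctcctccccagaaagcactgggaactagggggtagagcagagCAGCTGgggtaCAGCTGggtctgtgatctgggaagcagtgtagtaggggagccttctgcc
Cd3e: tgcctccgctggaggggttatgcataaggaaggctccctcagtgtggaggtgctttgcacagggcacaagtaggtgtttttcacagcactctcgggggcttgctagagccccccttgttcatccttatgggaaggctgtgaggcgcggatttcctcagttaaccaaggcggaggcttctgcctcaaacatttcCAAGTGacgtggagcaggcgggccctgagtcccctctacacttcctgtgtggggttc
Lck: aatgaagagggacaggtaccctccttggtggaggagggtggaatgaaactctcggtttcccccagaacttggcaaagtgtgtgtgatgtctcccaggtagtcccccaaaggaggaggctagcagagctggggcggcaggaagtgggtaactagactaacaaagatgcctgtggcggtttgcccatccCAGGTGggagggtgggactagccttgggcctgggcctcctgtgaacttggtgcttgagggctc
Themis: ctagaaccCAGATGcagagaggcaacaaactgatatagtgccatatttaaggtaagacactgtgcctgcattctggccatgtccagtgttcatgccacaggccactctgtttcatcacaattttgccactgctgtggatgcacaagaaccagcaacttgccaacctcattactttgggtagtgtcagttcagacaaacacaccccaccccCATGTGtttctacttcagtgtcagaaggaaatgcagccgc
The Ptcra window held 2 matches, both of the form CAGCTG and close together. Cd3e and Lck held 1 match each, and Themis held 2. Among 32851 RefSeq promoter windows of the same length, 66.2% held CANNTG, 13.0% held CAGCTG (each of which is also counted under CANNTG), and 1.26% held as many as 2 CAGCTG. Over all 14 windows of the 10 members, 13 held CANNTG and 2 held CAGCTG, the windows of Ptcra and Lcp2. Zap70, Lck and Themis had more than 1 window each, and those of Themis overlap, so the 14 are not independent. CAGGTG, in either orientation, was in 6 of the 14 windows, more than 1 of them of Zap70, against 17.2% of all promoters. TGTGGT was in 2 of the 14 against 14.0%. These are matches of letters, and no binding was measured.

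Per cell, Ptcra was found in few cells of 3 libraries and in most cells of T-ALL#1. At least 1 UMI was counted in 7.23% of WT cells (6.46 to 8.05, exact Clopper-Pearson interval), 1.76% of preleukemic, 54.7% of T-ALL#1 and 14.6% of T-ALL#2 cells. At 2000 UMIs per cell the shares were 4.21%, 0.54%, 30.4% and 2.89%, so the order of WT and T-ALL#2 turned with depth. B-like or myeloid-like cells, which should lack the gene, had it in 0 of 7, 0 of 23, 1 of 15 (6.67%) and 0 of 6 cells, where the counts of 0 allow shares of up to 41.0%, 14.8% and 45.9%. In the empty droplets of T-ALL#2, Ptcra stood at 16.5 CPM (11.2 to 23.6), an interval that holds the 18.7 CPM of that library's cells. The level in empty droplets was 0.885 of that in cells for Ptcra, and 0.653 to 0.931 for the other 9 genes.

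The few Ptcra transcripts of the preleukemic library were held by a handful of cells. There, 9 cells with 10 or more Ptcra UMIs, and up to 57 in 1 cell, held 49.9% of all Ptcra UMIs, and without them the level was 4.37 CPM. WT had 22 such cells with 28.6% of its Ptcra UMIs, T-ALL#1 225 cells with 22.8%, and T-ALL#2 5 cells with 10.6%. Of the 22 WT cells, 12 were DN and 18 had Il2ra, which was seen in 3.41% of all WT cells. Of the 9 preleukemic cells, 4 were DN and 5 Cd8 only, 5 were cycling, and 2 had Il2ra. In T-ALL#1, 119 of the 225 cells were DP, 96 Cd8 only and 10 DN. The minimum of 10 UMIs was chosen after the values were seen, and it is easier to reach in deep cells.

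**Figure D2:**
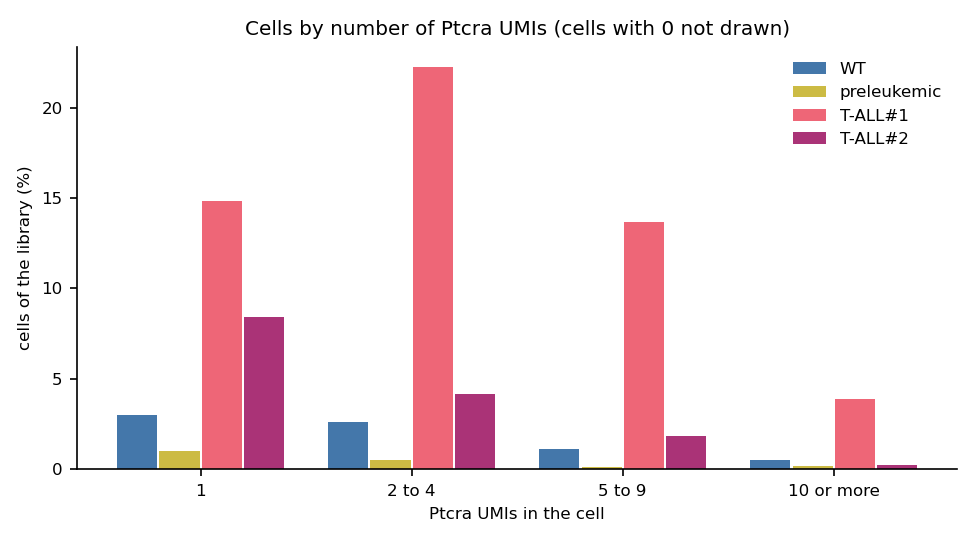
Share of each library's cells (%) with 1, 2 to 4, 5 to 9 and 10 or more Ptcra UMIs, with cells at 0 left out and 1 library per colour. T-ALL#1 leads in every class, with 3.90% of its cells at 10 or more UMIs against 0.521% in WT, 0.161% in the preleukemic library and 0.253% in T-ALL#2.

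Across classes of cells, Ptcra was highest in the DN3 gate in WT and in DP cells in T-ALL#1. In WT it was at 416 CPM in the DN3 gate (37 of 41 cells, 90.2%), 129 CPM in all DN cells, 44.2 CPM in Cd8 only cells, 42.7 CPM in DP cells and 5.17 CPM in Cd4 only cells. In T-ALL#1 it was at 75.5 CPM in the DN3 gate, 55.5 CPM in DN cells, 45.9 CPM in Cd4 only cells, 141 CPM in Cd8 only cells and 277 CPM in DP cells. The preleukemic library had 9.62 CPM in the DN3 gate, 6.34 CPM in DN cells, 11.6 CPM in Cd8 only cells and 7.81 CPM in DP cells, and no Ptcra UMI was counted in its 28 Cd4 only cells. T-ALL#2 had 13.9, 12.2, 19.9 and 22.7 CPM in the DN3 gate and in DN, Cd8 only and DP cells. Within DN cells alone, T-ALL#1 lay below WT (log2 ratio -1.22), the reverse of the libraries as a whole.

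In the WT DN3 gate Ptcra outweighed the alpha chain constant gene Trac, while over all WT DN cells Trac outweighed Ptcra (1210 against 265 UMIs, 17.97% Ptcra). Of Ptcra and Trac UMIs together, Ptcra made up 90.2% (86.2 to 93.4) in the WT DN3 gate, where 259 Ptcra and 28 Trac UMIs were counted, and 7.44% in WT DP cells. The preleukemic DN3 gate stood at 28.0% (21 to 35.9) with 42 and 108 UMIs, T-ALL#1 at 25.5% and T-ALL#2 at 11.7%. In T-ALL#1 DP cells the share was 49.7%, from 6823 Ptcra and 6903 Trac UMIs, and in the non-cycling ones 54.7%. UMIs are counted from transcript 3′ ends and not per length, so this share is read between classes and not as a ratio of proteins. Trdc, the delta chain constant gene, stood at 1432 CPM in preleukemic DN cells against 250.4 CPM in WT DN cells, and Trbc1 at 0.662 CPM in T-ALL#2 against 1121 to 2995 CPM in the other libraries. Their part in the levels of Ptcra was not tested.

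**Figure D3:**
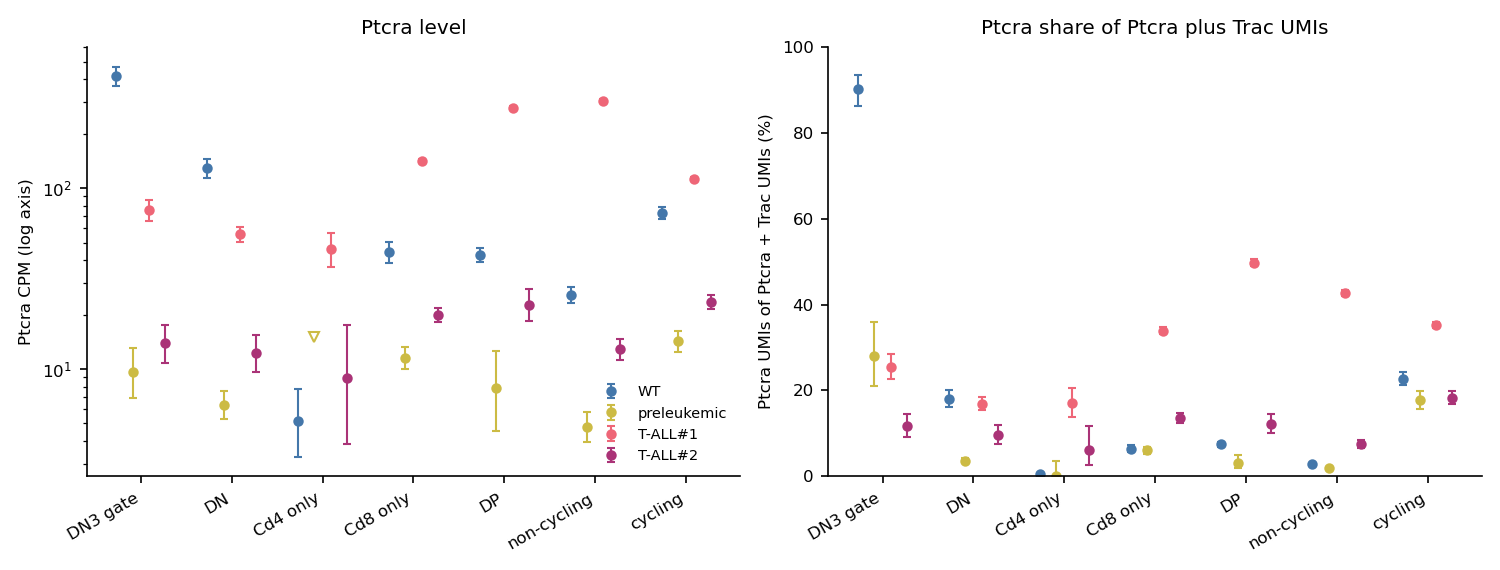
Left, Ptcra in CPM on a log axis by class of cell and library, with exact 95% Poisson intervals and an open triangle at the upper limit where no UMI was counted. Right, the share of Ptcra in the sum of Ptcra and Trac UMIs (%), with exact 95% binomial intervals. WT is highest in the DN3 gate (416 CPM, 90.2%) and T-ALL#1 is highest in the other classes but DN (277 CPM and 49.7% in DP cells).

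To ask whether the genes differed between DP and DN cells of the same animal, UMIs were summed over both classes in each library and tested with edgeR's quasi-likelihood test, with the library as a block (8 sums, 4 animals). Themis was the 1 member that passed, at a background of 0.424% of 10625 genes called higher and 0.424% called lower (45 each). Themis was at 181 and 515 CPM in DN and DP cells of WT, at 297 and 469 CPM in the preleukemic library, at 132 and 294 CPM in T-ALL#1, and at 104 and 205 CPM in T-ALL#2. It was thus higher in DP cells in 4 of 4 libraries, by 1.03 on the log2 scale (SE 0.142, edgeR adjusted p = 0.0279). This call was lost without the WT library (adjusted p = 0.114), without the preleukemic library (0.0691) and without T-ALL#1 (0.0876).

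Ptcra did not pass (log2 change 0.47, SE 0.684, edgeR adjusted p = 0.828), and its libraries disagreed in sign. The log2 ratio of its CPM, DP over DN, was negative in WT (-1.60) and positive in the preleukemic library (0.30), T-ALL#1 (2.32) and T-ALL#2 (0.89). The preleukemic sign is not known, as its counting interval runs from -0.52 to 1.04, with 17 Ptcra UMIs in DP cells. The T-ALL#2 levels, 12.2 and 22.7 CPM, both lay within the interval of its empty droplets (11.2 to 23.6 CPM). Without T-ALL#1 the fitted change was -0.29. Lck was higher in DP cells in 4 of 4 libraries, from 655 to 1075 CPM in WT, 841 to 933 CPM in the preleukemic library, 503 to 740.2 CPM in T-ALL#1 and 359 to 482 CPM in T-ALL#2, but its change of 0.41 (SE 0.124) had an edgeR adjusted p of 0.217. With non-cycling cells alone it was 0.62 with an adjusted p of 0.0415, and with classes set on thinned cells 0.75 with 0.0139. The latter setting called 700 genes higher and 987 lower. Cycling shares of its DN and DP cells differed in the leukemias, at 62.8% and 8.56% in T-ALL#1 and 48.3% and 1.59% in T-ALL#2. They were alike in WT (13.6% and 13.9%) and the preleukemic library (20.5% and 20.7%), and the part of cycling was not tested. Lat was also higher in DP cells in 4 of 4 libraries (0.29, SE 0.122, adjusted p = 0.370). The other 6 members had changes between -0.16 and 0.23 with edgeR adjusted p of 0.573 and above. Of these, Cd3e passed with classes set on thinned cells (0.53, adjusted p = 0.0413). The median over the 10 members was 0.16, against -0.0022 over all genes tested.

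**Figure D4:**
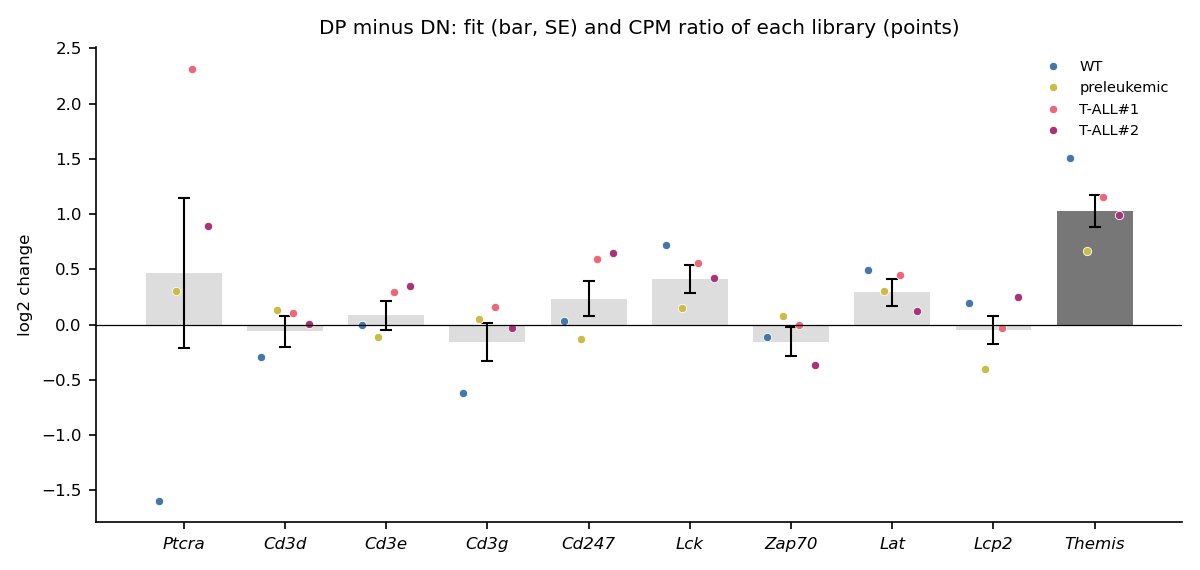
Log2 change from DN to DP cells for the 10 genes, where bars give the edgeR estimate with its SE (dark where it passed an adjusted p of 0.05, n = 4 animals) and points give the log2 ratio of CPM in each library. Themis is the dark bar, at 1.03, and the points of Ptcra run from -1.60 in WT to 2.32 in T-ALL#1.

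Cells were next divided by cycling, at 81.2 UMIs per 10000 of 43 S phase and 54 G2/M phase genes, none of them a member. Cycling cells made up 14.9% of WT, 20.5% of preleukemic, 38.4% of T-ALL#1 and 39.4% of T-ALL#2 cells, and 21.1% of all cells lay within 0.5 log2 units of the limit. In the same edgeR test, 6 of the 10 members were lower in cycling cells, none was higher and 4 did not pass. Over 11646 genes, 28% were called lower (3263) and 25.8% higher (3000), so a called gene is common in this comparison. Median change was -0.37 over the members and -0.05 over all genes tested. Median depth was 12018 to 25620 UMIs in cycling cells and 3417.5 to 12617 UMIs in the others, and the part of depth was not tested.

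Lcp2 and Themis fell furthest. Lcp2 went from 199.96 to 71.6 CPM in WT, from 180.2 to 68.6 CPM in the preleukemic library, from 102 to 51.1 CPM in T-ALL#1 and from 57.9 to 39.2 CPM in T-ALL#2 (log2 change -0.92, SE 0.137, edgeR adjusted p = 0.00211). Themis went from 451 to 229 CPM, 414 to 230 CPM, 384 to 136 CPM and 175 to 103 CPM in the same order (-0.84, SE 0.136, edgeR adjusted p = 0.00285). Both adaptors were lower in cycling cells of every library, and in cycling and non-cycling cells alike the WT and preleukemic CPM stood above those of both leukemias. Cd3e fell from 855 to 395 CPM in WT, 513 to 282 CPM in the preleukemic library, 660 to 338 CPM in T-ALL#1 and 398 to 291 CPM in T-ALL#2 (-0.66, SE 0.120, edgeR adjusted p = 0.00423). Cd247, the zeta chain, changed by -0.59 (SE 0.104, edgeR adjusted p = 0.00393). Lck (-0.37, adjusted p = 0.0246) and Cd3d (-0.37, adjusted p = 0.0464) passed narrowly, and both calls were lost when WT, the preleukemic library or T-ALL#1 was left out (adjusted p 0.0858 to 0.183).

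Cd3g, Zap70 and Lat did not pass. Cd3g changed by -0.15 (SE 0.134, edgeR adjusted p = 0.363), Zap70 by -0.27 (SE 0.123, adjusted p = 0.0986) and Lat by 0.02 (SE 0.0990, adjusted p = 0.864). The edgeR (TMM) factors raised cycling sums by 0.04 to 0.26 log2 units over library totals, and on totals alone the median gene stood at -0.24. On that scale Lat was at -0.16, Zap70 passed (-0.46, adjusted p = 0.0259), and 2247 genes were called higher against 4436 lower. The CPM of Lat was lower in cycling cells of all 4 libraries, with log2 ratios from -0.31 to -0.0028. In T-ALL#2 Cd3g (767 and 764 CPM), Zap70 (114 and 113 CPM) and Lat (347 and 346 CPM) were within counting error of each other in non-cycling and cycling cells.

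Ptcra went against the rest in 3 libraries and with them in T-ALL#1. In non-cycling and cycling cells it was at 25.5 and 73.0 CPM in WT, at 4.79 and 14.2 CPM in the preleukemic library, and at 12.8 and 23.5 CPM in T-ALL#2, log2 ratios of 1.51, 1.57 and 0.87 whose counting intervals lie above 0. Those intervals take UMIs as independent, but 9 preleukemic cells, 5 of them cycling, held 49.9% of that library's Ptcra UMIs. Both T-ALL#2 levels lay within the interval of its empty droplets (11.2 to 23.6 CPM). In T-ALL#1 Ptcra was at 303 and 113 CPM (-1.43, interval -1.48 to -1.38). The edgeR change over the 4 libraries was 0.79 (SE 0.523, adjusted p = 0.239), and without T-ALL#1 it was 1.47 (SE 0.217, adjusted p = 0.0076). Within DN cells alone it was 0.84 (SE 0.196, adjusted p = 0.00865), and there T-ALL#1 had 24.9 CPM in non-cycling and 66.9 CPM in cycling cells. T-ALL#1 DP cells showed the opposite, with 461 CPM in non-cycling and 135 CPM in cycling cells. In WT the order also turned within the DN3 gate, from 642 CPM in 32 non-cycling to 192 CPM in 9 cycling cells, and likewise in the preleukemic gate, from 13.8 to 6.22 CPM. Trac was lower in cycling cells of all 4 libraries (-1.15, SE 0.217, edgeR adjusted p = 0.0050).

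**Figure D5:**
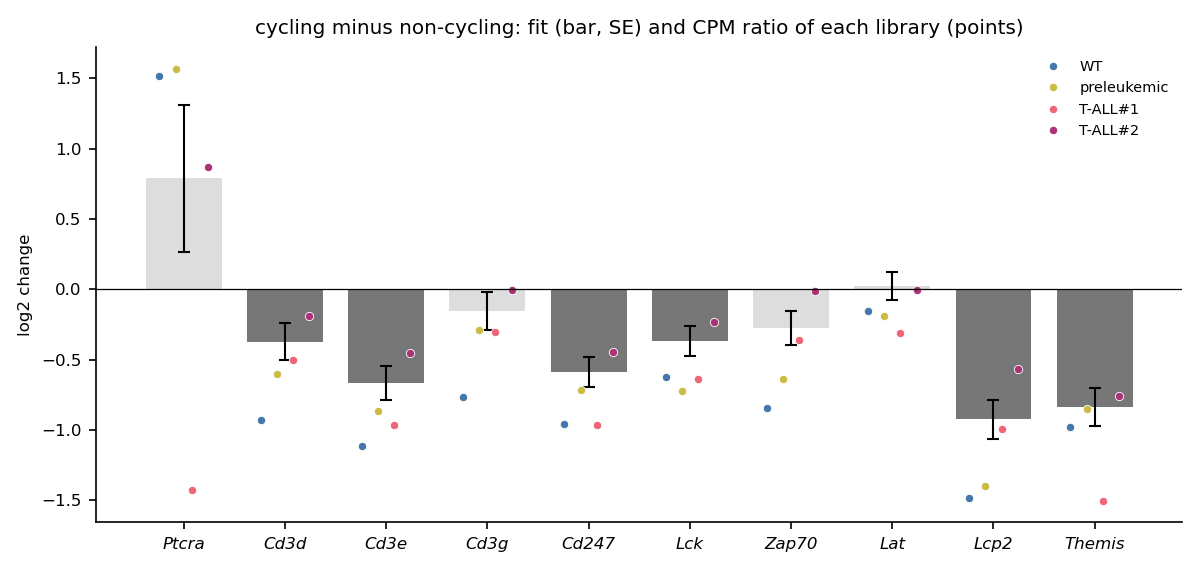
Log2 change from non-cycling to cycling cells for the 10 genes, where bars give the edgeR estimate with its SE (dark where it passed an adjusted p of 0.05, n = 4 animals) and points give the log2 ratio of CPM in each library, which carries no TMM factor. The 6 dark bars lie between -0.37 and -0.92, and the points of Ptcra are at 1.51, 1.57 and 0.87 with T-ALL#1 at -1.43.

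The 3 clustered CD3 genes lie side by side on chromosome 9 of GRCm38. Cd3g (44969572 to 44980431, minus strand) and Cd3d (44981786 to 44987339, plus strand) start 1355 bases apart and point away from each other, and Cd3e (44998740 to 45009627, minus strand) lies 11400 bases beyond Cd3d. By CPM, Cd3g and Cd3e shared the same order of libraries and Cd3d had another. Cd3d stood at 975 (WT), 724 (preleukemic), 1127 (T-ALL#1) and 907 CPM (T-ALL#2). Cd3g followed at 1385, 836, 1303 and 765 CPM, and Cd3e at 681, 418, 447 and 339 CPM. Preleukemic levels of all 3 lay under those of WT, by 1.35-fold, 1.66-fold and 1.63-fold. T-ALL#1 stood above WT for Cd3d and below it for Cd3g and Cd3e, although with TMM factors Cd3g was above WT there (0.22). The Cd3e CPM of T-ALL#2 was 2.01-fold lower than in WT and below that of the preleukemic library, an order that turned with TMM factors (0.20).

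Completeness of the CD3 set in single cells followed the same order of libraries as the CPM of Cd3g and Cd3e. At 2000 UMIs per cell, Cd3d, Cd3e and Cd3g were all detected in 64.0% of 3229 WT cells (62.4 to 65.7), 39.6% of 5226 preleukemic, 54.7% of 5679 T-ALL#1 and 35.4% of 1975 T-ALL#2 cells. None of the 3 was seen in 1.02%, 3.06%, 0.722% and 2.99% of cells. In cycling cells the full set was found in 37.3%, 25.9%, 37.1% and 27.6%, and in non-cycling cells in 69.4%, 43.3%, 65.8% and 40.5%. As sequenced, Cd3d was detected in 87.8%, 90.2%, 98.995% and 99.3% of cells, against 14.3% to 26.7% of the 6 to 23 B-like or myeloid-like cells of a library, cells that should lack it. Cd3g was highest in the WT DN3 gate, at 2601 CPM, where Zap70 was at 48.1 CPM and Lcp2 at 56.2 CPM, compared with 105 and 151 CPM over all WT cells.

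Cd247, Lck, Lcp2 and Themis shared one order of libraries, WT over preleukemic over T-ALL#1 over T-ALL#2. Cd247 (chromosome 1, 165788681 to 165877277) was at 300.1, 209.8, 163 and 89.2 CPM. Lck (chromosome 4, 129548344 to 129573641) was at 895, 843, 629 and 406 CPM. Lcp2 (chromosome 11, 34046920 to 34092295) was at 151, 134, 68.1 and 47.6 CPM, and Themis (chromosome 10, 28668360 to 28883818) at 367, 338, 219 and 135 CPM. The order held with TMM factors. Counting intervals of neighbours did not overlap. The leukemias differed from each other by 1.43-fold to 1.83-fold in these 4 genes, however, which is the 1 measure of spread between animals here. The leukemic mice also differed in Xist and Y-linked transcripts. For 6 of the 10 members, the leukemias differed from each other by more than the preleukemic library differed from WT, and the exceptions were Cd3d, Cd3e, Zap70 and Lat. With TMM factors Cd3g joined the exceptions, which left 5. Within DN cells the preleukemic levels of Lck, Lcp2 and Themis were above WT, by 0.36, 0.26 and 0.71 log2 units, the reverse of all cells.

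On library totals, Zap70 and Lat varied least, but with TMM factors Lck did (1.504-fold), and Zap70 spanned 1.81-fold, with T-ALL#2 highest. Zap70 (chromosome 1, 36761798 to 36782818) was lowest in the preleukemic library (88.9 CPM), followed by WT (105 CPM), T-ALL#2 (114 CPM) and T-ALL#1 (125 CPM), a span of 1.40-fold. It was the 1 member with a higher CPM in both leukemias than in WT, while 7 were lower in both. With TMM factors Cd3d was also higher in both (0.52 in T-ALL#1 and 0.45 in T-ALL#2), and Cd3g and Lat turned in T-ALL#1 (0.22 and 0.22). Lat (chromosome 7, 126363824 to 126369570) was at 510, 366, 478 and 346 CPM, a span of 1.47-fold. As sequenced, Zap70 was detected in 39.4% of WT, 42.2% of preleukemic, 67.2% of T-ALL#1 and 75.7% of T-ALL#2 cells, but at 2000 UMIs in 22.4%, 17.9%, 24.0% and 18.8%, so that order of libraries did not hold at equal depth.

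By a rule of at least 2-fold with counting intervals apart, the preleukemic library differed from WT in 1 member, Ptcra, which was lower. Of 8417 genes with at least 10 CPM, 4.88% were as much lower and 4.46% as much higher. Against the preleukemic library, T-ALL#1 had Ptcra higher and no member lower, beside 4.68% and 11.8% of genes. T-ALL#2 against the preleukemic library had 1 higher (Ptcra) and 4 lower (Cd247, Lck, Lcp2 and Themis), beside 3.96% and 27.1%. Against WT, T-ALL#1 had 1 higher (Ptcra) and 1 lower (Lcp2, 2.23-fold), beside 4.72% and 12.9%. T-ALL#2 against WT had none higher and 6 lower (Ptcra, Cd3e, Cd247, Lck, Lcp2 and Themis), beside 5.2% and 30.3% of genes. TMM factors raised the log2 ratios by 0.05 for the preleukemic library over WT, by 0.26 and 0.50 for the leukemias over the preleukemic library, and by 0.31 and 0.55 over WT. With them, 1 member each passed in the first 4 comparisons (Ptcra), where 4.72%, 7.87%, 10.9% and 9.35% of genes were as much higher and 4.56%, 8.2%, 13.5% and 8.23% as much lower. In T-ALL#2 over WT 2 members were lower with them (Cd247 and Lcp2), beside 14.3% of genes lower and 14% higher. The comparisons share libraries and are not independent.

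Another 41 genes of TCR signaling were followed, from the kinase Fyn to the NFAT factors. In the preleukemic thymus 1 was at least 2-fold higher and 7 as much lower than in WT. Of all genes with at least 10 CPM, 4.46% were as much higher and 4.88% as much lower. Counts in this paragraph are on library totals, and TMM factors were not applied to them. Cd5, which dampens TCR signals, was 8.88-fold lower (24.6 against 218 CPM), Malt1 5.20-fold and Cd6 4.13-fold lower, and the adaptor Grb2 was 2.56-fold higher (356 against 139 CPM). Tespa1 (1.79-fold) and Ubash3a (1.74-fold) were next highest. Of the 40 with at least 10 CPM in either library, 1 was higher and 12 lower in T-ALL#1 than in the preleukemic library. In T-ALL#2 none was higher and 21 were lower. Beside them, 4.68% and 11.8% of all genes were higher and lower in T-ALL#1, and 3.96% and 27.1% in T-ALL#2. Tespa1, a thymocyte adaptor, had 429 CPM in the preleukemic library but 100.1 CPM in T-ALL#1 and 53.2 CPM in T-ALL#2. Against WT, 16 of the 41 were lower in T-ALL#1 and 27 in T-ALL#2, with none higher. The shares of all genes lower there were 12.9% and 30.3%, and 4.72% and 5.2% were higher. Cd5 was 17.0-fold lower in T-ALL#2 than in WT.

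None of the 41 passed between DP and DN cells in edgeR's test, with 8 of them at an unadjusted p under 0.05. By the same unadjusted limit, 601 of the 10625 genes tested were higher and 783 lower, and 0.424% passed in each direction. In cycling cells 33 of the 41 were lower and none higher, beside 28% and 25.8% of all genes tested. The median over the 41, -0.69, was further from 0 than the -0.37 of the 10 members. The Tec family kinase Txk fell furthest (-2.16, SE 0.132, edgeR adjusted p = 0.000321). The 8 that did not pass were Grb2, Sos1, Bcl10, Nck1, Skap1, Csk, Ptpn6 and Nfatc3, with edgeR adjusted p from 0.0960 to 0.870.

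Over 16 sums of 4 libraries and 4 classes, the genes whose levels were most like those of Ptcra among 4526 genes were Tm6sf1 (Pearson r = 0.939 of log2 CPM), Rnf126 (0.874), Pfdn2 (0.857), U2surp (0.851) and D5Ertd579e (0.838). Tm6sf1 was at 141 CPM in T-ALL#1, where it was highest, 59.4 CPM in WT, 54.6 CPM in T-ALL#2 and 31.9 CPM in the preleukemic library. Among the members, Ptcra was most like Cd3d (r = 0.723) and Lat (0.678). The closest pairs of members were Lck with Themis (0.925) and Cd247 with Lcp2 (0.925). These values describe sums that share libraries and so are not independent points.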

How the data were processed

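Thymocytes of 4 mice were profiled by 10x Genomics 3′ sequencing, and the authors deposited counts, raw UMIs per gene and barcode. Per the file headers, Cell Ranger 3.0.2 wrote the WT, preleukemic and T-ALL#1 matrices and version 4 that of T-ALL#2, which holds every barcode, so a minimum of 3416 UMIs was set there as 1/10 of the 99th percentile of the top 10000 barcodes. Per the labels the build is mm10. The labels name more than 1 chemistry version but tie none to a library, so chemistry and library cannot be told apart. Doublets were limited by the sort on singlets, and an upper limit on genes per cell was run as an alternative.

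Levels are UMIs summed over kept cells, per 1000000 UMIs. Cells were thinned to 2000 UMIs for shares, leaving out 991 WT, 350 preleukemic, 94 T-ALL#1 and 0 T-ALL#2 cells. Sums per library and class were tested in edgeR 4.0.16 (R 4.3.3), with filterByExpr, TMM factors, robust quasi-likelihood fits and Benjamini-Hochberg adjustment over all genes (threshold 0.05), after a test on simulated data. Gate genes were left out of the first comparison and cell-cycle genes of the second. Both sums of a library come from 1 animal, so the library was kept as a block. Across genes, deviations from the class means correlated between the paired sums of a library at 0.646 to 0.767 (DP and DN) and 0.804 to 0.892 (cycling and non-cycling). WT and preleukemic are 1 animal each, and p-values measure the spread between 4 animals of 3 groups. The members and lists were chosen with earlier results of these data known. Members were named in every comparison, and other genes as the 3 largest changes in each direction, some of which are not reported here. Genes most like Ptcra had at least 50 CPM in a sum. Alternatives were DESeq2 1.42.0, other scalings and filters, other cell selections, and leaving out each library, where unscaled library totals and the fit without B-like and myeloid-like cells were chosen after the data were seen. Promoter windows are RefSeq's, and all 10 members matched by symbol.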

Additional observations from a re-analysis of the deposited data

Results flagged for a closer look

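In 4 genes the direction from DN to DP cells differed between groups in every sample, a difference that was not tested, since 2 groups hold 1 mouse each. The classes also differed in cycling. Cycling cells were 5.85% of DN and 19.2% of DP cells in WT, and 15.9% and 37.9% in the preleukemic library. In T-ALL#1 they were 52.8% and 27.0%, and in T-ALL#2 47.3% and 24.7%. Their part in these directions was not tested. For Ptcra both leukemias were higher in DP cells, T-ALL#1 by 2.32 and T-ALL#2 by 0.89 on the log2 scale, and WT was lower (-1.60). Both T-ALL#2 levels of Ptcra lay within the counting interval of that library's empty droplets. Cd3d was higher in DP cells of the preleukemic library (0.14) and lower in those of WT (-0.30). Cd3e was higher in DP cells of both leukemias (0.30 in T-ALL#1 and 0.35 in T-ALL#2) and lower in those of the preleukemic library (-0.12). Lcp2 was lower in DP cells of the preleukemic library (-0.40) and higher in those of WT (0.19). Counting intervals were close to no change for Cd3e in the preleukemic library (-0.22 to -0.015) and for Lcp2 in WT (0.0053 to 0.38). TMM factors, not applied to these ratios, would shift them by 0.077 and -0.11, so both signs are unsure.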

How the results depend on the processing

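The number of genes called between DP and DN cells, 90 in the test as described, was 477 with every gene that had a UMI, 359 in DESeq2, 366 in non-cycling cells alone, 179 with at least 2 UMIs per gate and 1687 with classes set on thinned cells, and 12 to 199 with 1 library left out. The effect of the pairing was large: with no replicate block, edgeR called 0 genes between DP and DN cells (216 higher and 132 lower at an unadjusted p under 0.05, against 601 and 783 with the block) and 1216 between cycling and non-cycling cells, against 6263. DN cells alone gave 3475 in the latter. Themis kept its direction between DP and DN cells in all 15 settings and its call in 11. Of the 6 members lower in cycling cells, Cd3e, Cd247, Lcp2 and Themis kept the call in 13 of 14 settings, Lck in 9 and Cd3d in 8. Changes in sign were found in members that did not pass. Between DP and DN cells, leaving out 1 library gave Ptcra -0.29 (without T-ALL#1) to 1.30, Cd3d -0.14 to 0.048 (without WT), Cd3g -0.24 to 0.028 (without WT) and Lcp2 -0.11 to 0.053 (without the preleukemic library). Non-cycling cells alone gave 0.046 for Cd3d, 0.012 for Cd3g and 0.034 for Lcp2, and classes set on thinned cells 0.23, 0.11 and 0.31. In cycling cells, Ptcra stood at -0.43 with no replicate block, Cd3g at 0.0099 in DN cells, and Lat at -0.0021 with RLE size factors, -0.0024 in DESeq2, -0.16 on library totals, -0.094 in DP cells and -0.0011 (without the preleukemic library) to 0.043 with 1 library left out. Between libraries, the number of members at least 2-fold apart, with the shares of all genes higher and lower in the same setting, became 2 for the preleukemic library over WT in DN cells (Ptcra and Cd3g, beside 6.92% and 6.41%). Where T-ALL#1 was set against the preleukemic library it was 2 with cells weighed alike (7.15% and 12.8%) or with the upper limit on genes (5.15% and 12.1%), and 3 in DN cells (7.47% and 20.2%). For T-ALL#1 over WT it was 1 in non-cycling cells (6.08% and 11.9%). With TMM factors it was 1 where T-ALL#2 was set against the preleukemic library (10.9% and 13.5%), 1 for T-ALL#1 over WT (9.35% and 8.23%) and 2 for T-ALL#2 over WT (14% and 14.3%). Ptcra of T-ALL#1 was below WT in DN cells (-1.22). The call of Ptcra as higher in T-ALL#2 than in the preleukemic library was lost in DN cells and in cells with Cd8a or Cd8b1. Its call as lower in T-ALL#2 than in WT was lost in more settings. These were cells weighed alike, the upper limit on genes, non-cycling cells and TMM factors. The causes were not tested. Thinning to 2000 UMIs moved 39 of 40 shares of cells. With 1 mouse per library, counting intervals do not cover the spread between animals, and library, age, sex, depth and chemistry cannot be told apart.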
